A study of Mus musculus with 32 samples.

Results

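The 32 genes described here encode caspases, BCL2 family proteins, death receptors and the proteins that these work with. They were picked by symbol, with earlier results of these data already known. All 32 were found among the 24646 genes of each of the 4 tissue tables, with none lost to a filter on low values. The tissues were the liver and 3 fat depots, namely the epididymal (eWAT) and inguinal (iWAT) white depots and brown fat (BAT). They came from males of the C57BL/6J background that were either whole-body knockouts (KO) of *Gpr146* or wild-type (WT) littermates. Both genotypes were 20 weeks old, had received high-fat food over 3 months and were fasted overnight before the tissues were taken. The deletion is carried by every cell of the mouse, so a change in a tissue need not start in that tissue. GPR146 is a G protein-coupled receptor. For 4 mice per genotype, total RNA was read on 1 array per mouse and tissue (Mouse Gene 2.1 ST from Affymetrix, 32 arrays), and the authors deposited normalized log2 expression values. A difference of 1 on this scale is a doubling, and levels of different genes are not comparable because each gene has its own probes.

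Caspases are proteases that dismantle a cell once they are switched on. In the extrinsic pathway, receptors such as FAS and TNFR1 recruit FADD and caspase-8, whereas in the intrinsic pathway BH3-only proteins release BAX and BAK to open the outer mitochondrial membrane, so that cytochrome c can assemble APAF1 and caspase-9 into the apoptosome. Inflammatory caspases cut gasdermin D to open pores in pyroptosis, and RIPK3 and MLKL carry out necroptosis. In the adipose tissue of obese mice, macrophages gather around dying adipocytes and are a rich source of inflammatory caspases.

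*Gpr146* itself was lower in every KO sample than in every WT sample of each tissue (two-sided exact permutation test, p = 0.0286 in each, the smallest that 4 mice against 4 allow). This includes the liver, where the titles of the 4 KO samples also contain the letters WT. The mean of 5 hepatocyte markers was 10.98 to 11.34 in the liver arrays and that of 5 adipocyte markers 8.50 to 9.60 in the 3 fat depots, so that each tissue carried its own markers. Some arrays stood apart. In iWAT the mean of 4 B cell markers, a sign of lymph node, was 6.08 to 8.25 in WT replicates 1 and 2 and KO replicates 2 and 4 and 3.29 to 3.70 in the other 4 arrays. In BAT the mean of 5 skeletal muscle markers was 6.88 to 7.80 in WT replicates 2 and 3 and KO replicate 2 and 2.93 to 3.85 in the others. In bulk tissue, fewer cells of a type and less RNA per cell cannot be told apart.

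In eWAT, 11 of the 32 genes fell and 1 rose in the KO (limma, Benjamini-Hochberg adjusted p below 0.05 over all genes). The falls were in *Casp1*, *Casp4*, *Ripk3*, *Bak1*, *Casp8*, *Apaf1*, *Bcl2l11*, *Casp2*, *Tnfrsf1a*, *Mcl1* and *Bax*, with log2 fold changes from -1.85 to -0.36, and the rise was in *Birc2*, a ubiquitin ligase that restrains caspase-8 activation, with 0.41. Among all genes, 10.7% fell and 4.57% rose, whereas 34.4% of the 32 fell. In eWAT, 30 of the 32 genes remained when genes below the median level were left out. The share over all genes thus includes more dim genes, in which a fall has less room. The part of this in the excess was not tested. The median log2 fold change of the 32 genes was -0.27, beside 0.03 over all genes. Values and intervals are those of limma throughout. After quantile normalization 8 of the 32 fell and 1 rose, and their median was -0.15. The same scaling moved the share of rises among all called genes from 30.0% to 48.9%. The shares and the median of all genes given above are therefore no background for the counts after quantile normalization.

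**Figure D1:**
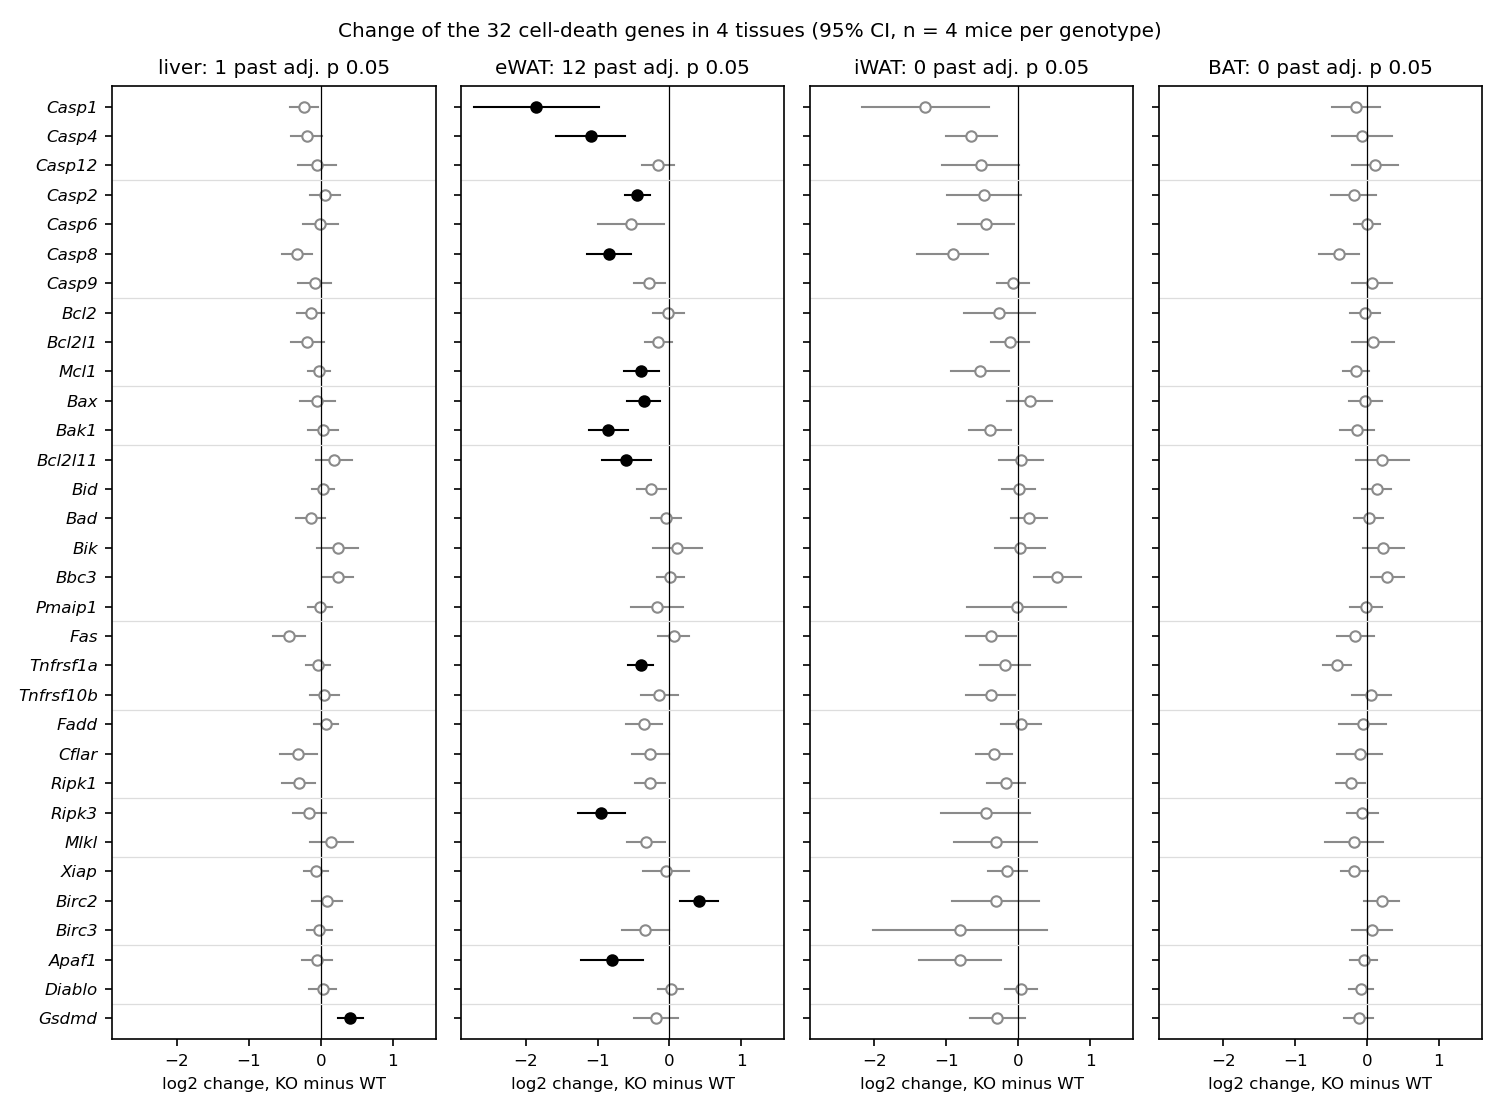
Log2 fold change (KO minus WT) of the 32 genes in liver, eWAT, iWAT and BAT on the horizontal axis, 1 gene per row, grouped by role with grey lines between roles. Bars are 95% confidence intervals of the limma fit (n = 4 mice per genotype), and black filled points passed an adjusted p of 0.05: 1 in liver, 12 in eWAT and 0 in iWAT and BAT.

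The inflammatory caspases held the largest falls in eWAT. *Casp1*, the protease that matures IL-1β and IL-18, measured 7.27, 7.48, 7.51 and 7.47 in WT replicates 1 to 4 and 4.91, 6.90, 5.66 and 4.85 in KO replicates 1 to 4. All 4 KO values lay below the WT values, and KO replicate 2 lay closest to them. The mean fell from 7.43 ± 0.11 to 5.58 ± 0.95 (SD, n = 4 each), a log2 fold change of -1.85 (standard error 0.39, limma adjusted p = 0.0157). *Casp4*, the sensor of intracellular lipopolysaccharide, measured 6.19, 6.23, 6.33 and 6.25 in WT and 4.82, 5.90, 5.06 and 4.82 in KO. Here too the groups were apart, with KO replicate 2 nearest to WT. The log2 fold change of *Casp4* was -1.10 (standard error 0.22, adjusted p = 0.0132). *Casp12*, the third inflammatory caspase of this group, had WT values of 5.26 to 5.55 and KO values of 5.13 to 5.44, which overlap, and its change was -0.16 (95% confidence interval -0.39 to 0.06).

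**Figure D2:**
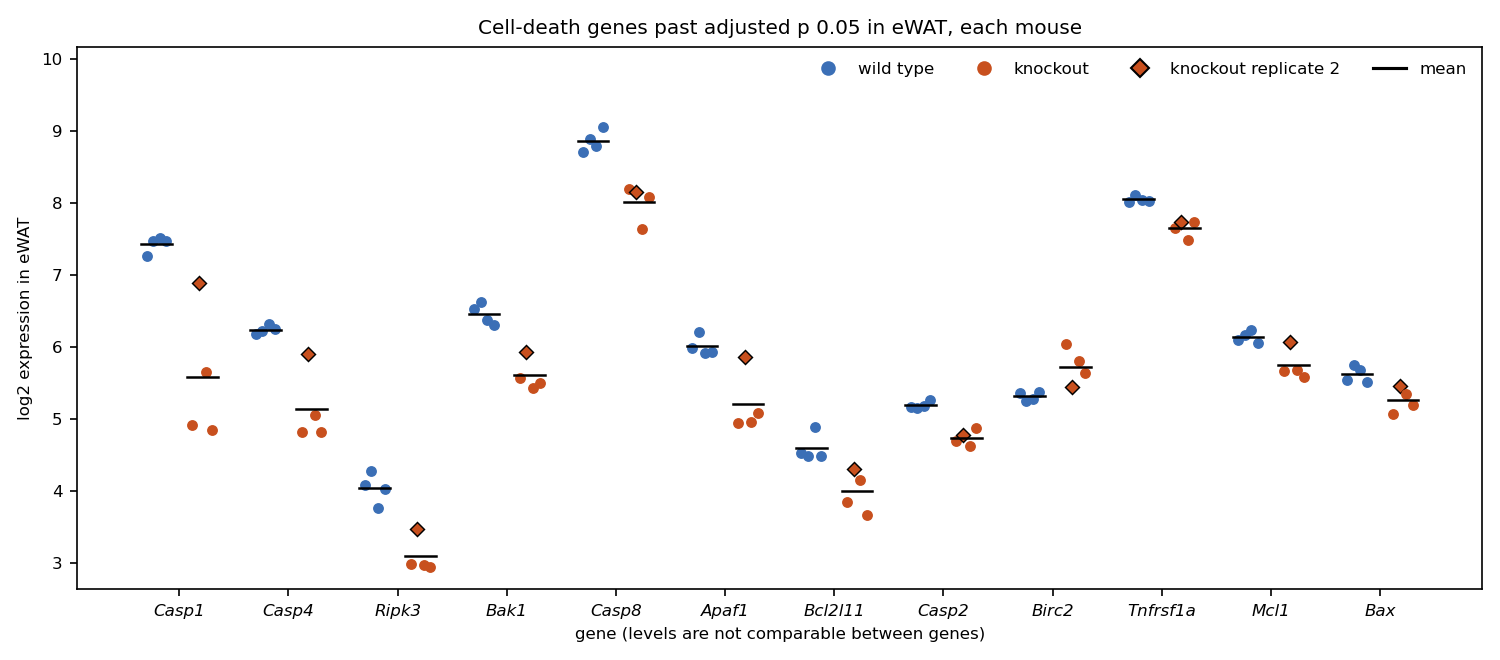
Log2 expression in eWAT (vertical axis) of the 12 genes past an adjusted p of 0.05, each point 1 mouse, WT in blue and KO in orange, with a black line at the mean of 4 mice. KO replicate 2, drawn as a diamond, was the highest of the 4 KO values in 9 of the 11 genes that fell and lay within the WT range in *Mcl1*.

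*Casp1*, *Casp4* and *Casp12* follow one another on chromosome 9 with no other coding gene between them, and *Birc2* and *Birc3* are a second pair of neighbours on the same chromosome. Their promoters are shown because only some of these neighbours passed the test in eWAT. *Casp1* and *Casp4* fell while *Casp12* did not pass, and *Birc2* rose while *Birc3* measured -0.33 (limma adjusted p = 0.164). Whether the changes of neighbours differ was not tested. In iWAT each of these genes had a negative change that did not pass. The windows run from 250 bases before to 50 bases after the annotated start (RefSeq, GRCm38.p6), 5′ to 3′ on the strand of the gene. They are chr9:5298267-5298566 (+ strand) for *Casp1*, chr9:5308599-5308898 (+) for *Casp4*, chr9:5345226-5345525 (+) for *Casp12*, chr9:7837008-7837307 (-) for *Birc2* and chr9:7873121-7873420 (-) for *Birc3*, and for *Casp4* and *Birc2*, which have 2 annotated starts each, the first listed is given. Capitals mark the letters GAGGAA, a core of sites for myeloid ETS factors, on either strand.
Casp1: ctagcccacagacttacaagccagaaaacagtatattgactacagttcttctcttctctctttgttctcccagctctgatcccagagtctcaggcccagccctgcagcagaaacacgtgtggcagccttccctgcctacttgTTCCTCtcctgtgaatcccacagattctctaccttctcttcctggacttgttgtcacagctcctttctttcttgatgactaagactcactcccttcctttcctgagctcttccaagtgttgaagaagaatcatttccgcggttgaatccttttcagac
Casp4: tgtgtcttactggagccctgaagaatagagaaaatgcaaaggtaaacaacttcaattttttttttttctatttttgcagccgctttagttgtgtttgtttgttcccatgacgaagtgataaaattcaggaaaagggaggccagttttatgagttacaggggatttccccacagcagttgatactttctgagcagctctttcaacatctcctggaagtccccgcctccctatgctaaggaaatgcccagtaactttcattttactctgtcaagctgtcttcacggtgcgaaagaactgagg
Casp12: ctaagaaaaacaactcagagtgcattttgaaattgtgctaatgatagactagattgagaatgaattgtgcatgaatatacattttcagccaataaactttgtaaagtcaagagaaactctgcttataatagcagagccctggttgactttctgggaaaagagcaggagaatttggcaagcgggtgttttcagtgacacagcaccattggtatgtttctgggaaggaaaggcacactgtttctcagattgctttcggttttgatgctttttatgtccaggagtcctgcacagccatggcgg
Birc2: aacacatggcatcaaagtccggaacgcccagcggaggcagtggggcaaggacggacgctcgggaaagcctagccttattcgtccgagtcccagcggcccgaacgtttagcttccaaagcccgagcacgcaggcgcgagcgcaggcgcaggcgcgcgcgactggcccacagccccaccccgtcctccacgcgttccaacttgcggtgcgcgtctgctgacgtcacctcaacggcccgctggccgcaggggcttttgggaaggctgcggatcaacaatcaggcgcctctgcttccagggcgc
Birc3: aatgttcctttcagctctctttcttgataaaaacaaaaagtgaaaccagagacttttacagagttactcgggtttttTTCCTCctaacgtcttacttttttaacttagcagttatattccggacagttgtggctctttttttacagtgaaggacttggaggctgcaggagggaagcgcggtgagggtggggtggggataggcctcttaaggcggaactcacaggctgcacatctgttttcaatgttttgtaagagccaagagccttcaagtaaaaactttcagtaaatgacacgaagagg

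Of the 32 genes, 28 had a promoter in the RefSeq table, with 39 windows in all, and *Bik*, *Pmaip1*, *Tnfrsf10b* and *Gsdmd* had none there. Each motif was searched on both strands. GAGGAA was found in 28.2% of the 39 windows and in 28.3% of all 32851 windows, so the letters were as common in these genes as elsewhere. Windows with GAGGAA belonged to *Casp1*, *Casp2* and *Bak1*, which fell in eWAT, and to 7 genes that did not pass the test. The interferon response core, GAAA followed by any 2 bases and GAAA, was found in *Cflar* and *Ripk1* alone among the 28 genes (5.13% of the 39 windows against 3.44% of all). The NF-κB letters, GGGA followed by any 2 bases and TTCC, were found in none of the 39 windows and in 1.47% of all. The p53 half-site was found in *Bax* and in the window of the other start of *Birc2* (5.13% of 39 against 8.36% of all), and TATAAA in *Cflar* and *Xiap* (5.13% against 13.6%). A pair of TATAAA matches on opposite strands overlap each other in *Cflar*. The search pattern of the p53 half-site is the same on both strands, so any match to it, as in *Bax* and *Birc2*, is found on both.

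Among the 4 initiator and executioner caspases, *Casp8*, the initiator behind the death receptors, had the largest fall in eWAT. Its values were 8.72, 8.89, 8.80 and 9.07 in WT and 8.21, 8.16, 7.64 and 8.09 in KO. The groups did not overlap, and KO replicate 3 was the lowest. The log2 fold change was -0.84 (standard error 0.13, limma adjusted p = 0.00924), which is 1.79-fold higher in WT. *Casp2*, a caspase activated after DNA damage and centrosome defects, measured 5.17, 5.16, 5.19 and 5.26 in WT and 4.70, 4.78, 4.63 and 4.87 in KO. Each group was tight and the gap between them was wider than either, with a change of -0.45 (standard error 0.08, adjusted p = 0.0103). *Casp6*, an executioner, and *Casp9*, the apoptosome caspase, had every KO value below every WT value but did not pass, with changes of -0.53 (adjusted p = 0.115) and -0.28 (adjusted p = 0.0781).

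At the receptors, *Tnfrsf1a*, which encodes TNFR1, fell, while *Fas* and *Tnfrsf10b*, a TRAIL receptor, did not pass. *Tnfrsf1a* measured 8.02, 8.12, 8.05 and 8.04 in WT eWAT and 7.65, 7.74, 7.48 and 7.74 in KO eWAT. All KO values lay under the WT values, with a change of -0.40 (standard error 0.08, limma adjusted p = 0.0136). *Fas* had a change of 0.06 (95% confidence interval -0.16 to 0.28) and *Tnfrsf10b* one of -0.14 (adjusted p = 0.444). The 3 genes of the complex under the receptors all had negative changes that missed the threshold: *Fadd*, the adaptor, with -0.36 (adjusted p = 0.0633), *Ripk1*, the kinase that decides between survival and death signals, with -0.27 (adjusted p = 0.0842), and *Cflar*, which encodes the caspase-8 inhibitor FLIP, with -0.27 (adjusted p = 0.152).

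At the mitochondrion, both pore formers fell in eWAT. *Bak1* measured 6.53, 6.63, 6.37 and 6.31 in WT and 5.58, 5.93, 5.43 and 5.50 in KO. The groups did not overlap, and the change was -0.85 (standard error 0.12, limma adjusted p = 0.00823). *Bax* changed by -0.36 (adjusted p = 0.0438), with WT values of 5.52 to 5.75 and KO values of 5.07 to 5.47, and after quantile normalization it no longer passed (-0.19, adjusted p = 0.262). Among the 6 BH3-only genes, *Bcl2l11*, which encodes BIM, was the one that fell. It measured 4.54, 4.49, 4.89 and 4.48 in WT and 3.85, 4.31, 4.16 and 3.67 in KO, and the groups did not overlap. Its change was -0.60 (standard error 0.15, adjusted p = 0.0276), and it missed the threshold after quantile normalization (-0.49, adjusted p = 0.0534). *Bid*, which links caspase-8 to the mitochondrion, had -0.26 (adjusted p = 0.0886), and *Bad*, *Bik*, *Bbc3* and *Pmaip1* lay between -0.17 and 0.11.

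The survival proteins did not move together. *Mcl1*, a short-lived BCL2 relative, ranged from 6.05 to 6.24 in WT eWAT and from 5.58 to 6.07 in KO eWAT. KO replicate 2 lay among the WT values and the other 3 lay below them, with a change of -0.39 (standard error 0.11, limma adjusted p = 0.0437) that fell to -0.21 (adjusted p = 0.170) after quantile normalization. *Bcl2* had a change of -0.02 (95% confidence interval -0.23 to 0.20) and *Bcl2l1*, which encodes BCL-XL, one of -0.16 (adjusted p = 0.236). *Apaf1*, the scaffold of the apoptosome, measured 5.99, 6.21, 5.93 and 5.94 in WT and 4.94, 5.87, 4.96 and 5.09 in KO. KO replicate 2 came close to the lowest WT value, and the other 3 lay far under it. Its change was -0.80 (standard error 0.19, adjusted p = 0.0240), while *Diablo*, the mitochondrial antagonist of the caspase inhibitors, had 0.02 (95% confidence interval -0.15 to 0.18).

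Of the 3 caspase inhibitors, *Birc2* measured 5.36, 5.26, 5.29 and 5.38 in WT eWAT and 6.04, 5.44, 5.80 and 5.64 in KO eWAT. Every KO value lay above the WT values, KO replicate 2 by the least. Its change of 0.41 (standard error 0.12, limma adjusted p = 0.0484) missed the threshold with a trended and robust prior (adjusted p = 0.0579) and whenever any array other than KO replicate 2 was left out. *Xiap*, the direct caspase inhibitor, had a change of -0.05 (95% confidence interval -0.37 to 0.27). In necroptosis, *Ripk3* measured 4.09, 4.28, 3.77 and 4.03 in WT and 2.99, 3.47, 2.97 and 2.95 in KO. The groups were apart, and KO replicate 2 was again the highest KO value. Its change was -0.95 (standard error 0.14, adjusted p = 0.00871), whereas *Mlkl*, the pore protein that RIPK3 activates, had -0.33 (adjusted p = 0.0972) and *Gsdmd*, the pore protein of pyroptosis, -0.18 (adjusted p = 0.411).

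Counted by separation alone, 14 of the 32 genes had every KO eWAT value below every WT value and 1 had every KO value above, where 13% and 8.63% of all genes were so separated. KO replicate 2 was the highest KO value in 9 of the 11 genes that fell (81.8%) and in 81.3% of the 2632 genes of the whole table that fell. Without it, 13 of the 32 genes fell and 1 rose, beside 14.2% of all genes that fell, and *Bid* and *Ripk1* joined those that passed. Leaving out any other array left 6 to 8 genes past the threshold, with 6 without WT replicate 2 and 7 without WT replicate 1, WT replicate 4 or KO replicate 4. *Casp4*, *Ripk3*, *Bak1*, *Casp8*, *Casp2* and *Tnfrsf1a* passed with each array left out and under all of the other settings tried for eWAT. *Casp1* missed the threshold without WT replicate 2 (adjusted p = 0.0507), and *Apaf1* without any 1 array other than KO replicate 2 (adjusted p from 0.0536 to 0.0765).

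Cell type markers moved with these falls. In eWAT, 7 of 8 macrophage markers fell in the KO, and the mean of the 8 was 8.42 to 8.65 in WT and 6.28, 8.07, 6.89 and 6.54 in KO replicates 1 to 4, so that replicate 2 was again nearest to WT. All 4 fibroblast and progenitor markers and 2 of 4 mesothelial markers also fell. Of the 5 adipocyte markers, *Adipoq*, *Plin1*, *Fabp4* and *Lipe* rose and *Lep* fell. The 4 neutrophil markers had a mean of 2.09 to 2.29 in WT and 2.20 to 2.27 in KO, with a mean percentile of 26.5 among all genes, and none of them or of the 5 T cell and 4 B cell markers passed. KO replicate 3 stood apart in the B cell markers, with a mean of 4.81 beside 2.69 to 3.24 in the other arrays. The mean of the 4 endothelial markers was 7.97 to 8.12 in WT and 8.09 to 8.47 in KO, with 0 passing. The part of the macrophages in the falls of *Casp1*, *Casp4* and the other genes was not tested.

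Among 45 further genes of the cell-death pathways, 14 fell in eWAT (31.1%, where 10.7% of all genes fell), 0 rose and 31 did not pass (limma). At an unadjusted p below 0.05, 21 were lower (46.7%, where 17.4% of all genes were) and 0 higher, and the median change was -0.22. The largest falls were in *Naip2*, an inflammasome sensor of bacterial secretion systems, with -1.45 (adjusted p = 0.0180), *Aim2*, the sensor of cytosolic DNA, with -1.43 (0.0160), *Tnfrsf1b*, the second TNF receptor, with -1.35 (0.0220), the ligand gene *Tnf* with -1.14 (0.0104) and *Tnfrsf21*, a death receptor, with -1.12 (0.00970). The other 9 were *Mdm2*, *Naip5*, *Trp53*, *Ninj1*, *Htra2*, *Pycard*, *Il18*, *Tradd* and *Dffa*. *Nlrp3*, an inflammasome sensor, and *Il1b*, which encodes IL-1β, had changes of 0.01 (adjusted p = 0.979) and -0.09 (0.866). The 3 *Bcl2a1* genes, with changes of -0.76 to -1.27, were among the 31 that did not pass. They are near-identical copies whose probes can share signal, which can add to the uncertainty and was not examined.

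The changes in eWAT were compared with those in the other tissues by testing the difference of the 2 changes itself. The 3 comparisons share the eWAT arrays. Against liver, 9 of the 32 genes differed (8.37% of all genes did), with *Casp1* at -1.62 (adjusted p = 0.0236), *Casp4* at -0.90 (0.0185), *Bak1* at -0.88 (0.00636), *Bcl2l11* at -0.79 (0.0466), *Ripk3* at -0.79 (0.0267), *Apaf1* at -0.75 (0.0281), *Gsdmd* at -0.59 (0.0285) and *Fadd* at -0.43 (0.0496). *Fas* differed the other way, by 0.50 (0.0350), since it measured 0.06 in eWAT and -0.45 in liver. Against BAT, 6 genes differed (6.93% of all genes), namely *Casp1* by -1.70 (0.00918), *Casp4* by -1.03 (0.00833), *Ripk3* by -0.88 (0.0183), *Apaf1* by -0.76 (0.0385), *Bak1* by -0.71 (0.0286) and *Birc3* by -0.40 (0.0478). By mean level, *Casp1*, *Casp4* and *Ripk3* lay at percentiles 29.7, 30.2 and 37.8 of all genes in liver, where a fall has less room. They lay at 43.3, 50.3 and 26.6 in BAT and at 88.3, 79.9 and 55.4 in eWAT. *Bak1* and *Apaf1* lay at 72.2 and 56.5 in liver and at 80.5 and 55.2 in BAT. The part of the low levels in these differences was not tested. Against iWAT, 0 genes differed after adjustment, as did 0% of all genes, and 7 of the 32 (21.9%) had an unadjusted p below 0.05 where 10.8% of all genes had one. The smallest of those p-values belonged to *Bax*, with a difference of -0.52 (95% confidence interval -0.79 to -0.24, adjusted p = 0.167). Leaving out 1 mouse number of a genotype left 1 to 9 genes against liver, with 1 to 4 without any of the WT mice, KO mouse 1 or KO mouse 4, and 2 to 5 against BAT, with 2 or 3 without those same mice. *Casp1* and *Casp4* passed against BAT with each mouse left out, and *Bak1* against liver did so too.

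**Figure D3:**
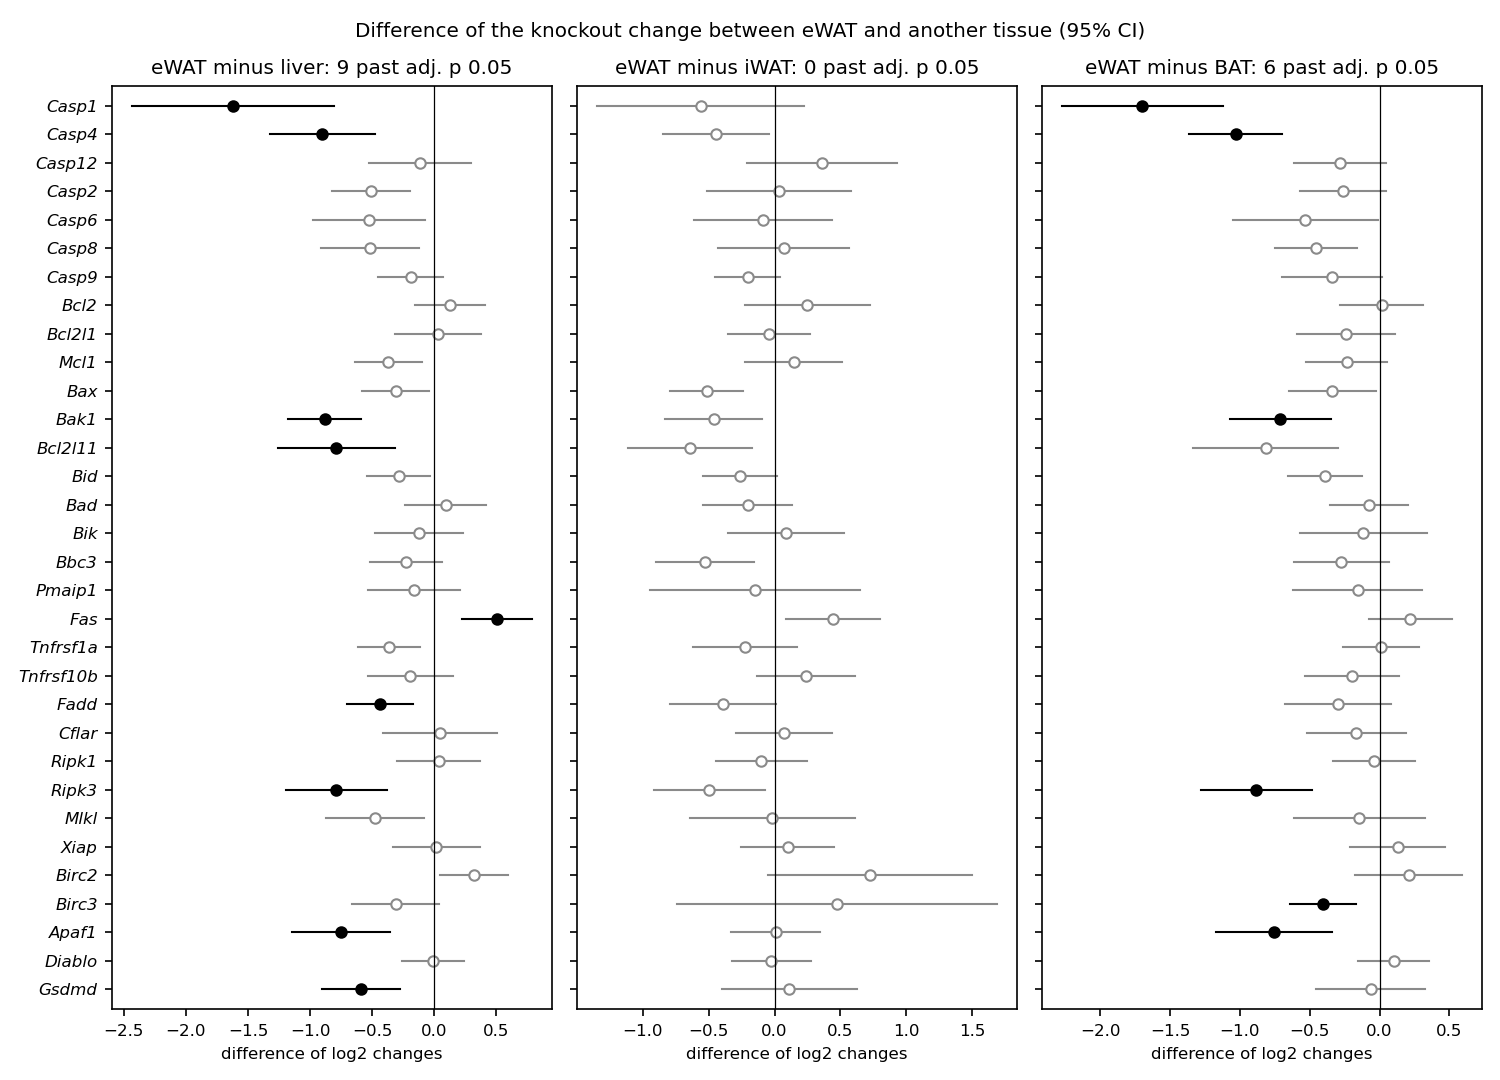
Difference between the log2 change (KO minus WT) in eWAT and that in liver, iWAT or BAT on the horizontal axis, 1 gene per row, with 95% confidence intervals (n = 4 mice per genotype). Black filled points passed an adjusted p of 0.05, 9 against liver, 0 against iWAT and 6 against BAT, and all of these but *Fas* lay below 0.

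In liver, 1 of the 32 genes passed, and it rose. *Gsdmd*, which encodes gasdermin D, measured 4.47, 4.23, 4.23 and 4.41 in WT and 4.70, 4.73, 4.81 and 4.73 in KO. Every KO value was above every WT value, and the KO values were closely spaced. The change was 0.41 (95% confidence interval 0.24 to 0.59, limma adjusted p = 0.0474). The call rested on most arrays being present: it remained without WT replicate 1 only, and the adjusted p was 0.0600 to 0.146 without any other array. Among all liver genes 0.499% fell and 0.162% rose, and quantile normalization moved the share of rises among called genes from 24.5% to 34.6%.

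The next smallest p-values in liver belonged to *Fas* and *Casp8*, which did not pass. *Fas* measured 6.56, 6.21, 6.34 and 6.38 in WT livers and 5.74, 5.90, 5.94 and 6.13 in KO livers, a change of -0.45 (limma adjusted p = 0.0821). *Casp8* measured 6.03, 6.34, 6.22 and 5.91 in WT and 5.81, 5.74, 5.84 and 5.80 in KO, a change of -0.33 (adjusted p = 0.165). Neither gene had overlapping groups, although WT replicate 4 of *Casp8*, at 5.91, lay close to the highest KO value. At an unadjusted p below 0.05, 2 of the 32 genes were higher and 5 lower (21.9%, where 13.3% of all genes had such a p), and the median change was -0.03. The liver endothelial markers fell in 3 of 4 cases, and the mean of the 8 macrophage markers was 4.61 to 5.15 in WT and 3.96 to 4.82 in KO with 0 passing. Of the 4 fibroblast and progenitor markers 1 fell, and their mean was 5.71 to 6.31 in WT and 4.99 to 5.73 in KO. The hepatocyte markers did not pass, and the part of these cells in the values of *Fas* and *Casp8* was not tested. Of the 45 further genes 0 passed, with 5 higher and 5 lower at an unadjusted p below 0.05.

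In iWAT 0 of the 32 genes passed, as did 0% of all genes in either direction. At an unadjusted p below 0.05, 10 were lower and 1 higher (34.4%, where 15.4% of all genes had such a p), and the median change was -0.30 beside 0.02 over all genes. *Casp4* measured 6.15, 6.10, 6.28 and 6.07 in WT and 5.24, 5.89, 5.21 and 5.65 in KO, a change of -0.65 (limma adjusted p = 0.221). *Casp8* measured 8.67, 8.58, 8.23 and 8.68 in WT and 7.17, 7.95, 7.29 and 8.10 in KO, a change of -0.91 (adjusted p = 0.221). In both genes the groups were apart. *Bbc3*, which encodes PUMA, measured 2.87, 2.86, 2.98 and 2.75 in WT and 3.77, 3.05, 3.41 and 3.39 in KO. Every KO value lay above the WT values, with a change of 0.54 (adjusted p = 0.221). Of the 32 genes, 24 had a lower and 8 a higher KO mean in iWAT. *Casp1* had the largest change, -1.29 (adjusted p = 0.234), with KO replicate 2 at 6.45 inside the WT range of 6.35 to 6.82.

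The lymph node signal in 4 of the iWAT arrays moved with several of these genes. *Birc3*, which B cells express highly, measured 7.56, 7.54, 7.39 and 6.03 in the 4 arrays with B cell markers (WT replicates 1 and 2, KO replicates 2 and 4) and 6.38, 5.82, 5.20 and 5.43 in the others (WT replicates 3 and 4, KO replicates 1 and 3). *Bcl2* measured 5.52, 5.38, 5.02 and 5.14 against 4.75, 4.74, 4.52 and 4.65 in the same order. In *Bcl2* every array with B cell markers lay above every array without. In *Birc3* the exception was KO replicate 4, which lay below WT replicate 3. With the B cell marker mean as a covariate, 0 of the 32 genes passed, and *Casp8* had a change of -0.87 (limma adjusted p = 0.0740) and *Casp4* one of -0.63 (0.0805).

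The iWAT arrays were also split by their B cell markers, a step added after seeing the data. Within the 4 iWAT arrays low in B cell markers, 2 per genotype, 5 of the 32 genes fell and 0 rose. Beside this, 2.88% of all genes fell. The 5 genes were *Casp1* with -1.96 (limma adjusted p = 0.00818), *Casp8* with -1.23 (0.0238), *Casp12* with -1.12 (0.0370), *Apaf1* with -1.10 (0.0372) and *Casp4* with -0.95 (0.0283). Within the other 4 arrays 0 genes passed, and *Casp8* and *Casp4* had changes of -0.60 and -0.36. Whether the changes differ between the 2 sets of arrays was not tested. Without KO replicate 2, whose B cell markers were high, *Casp1*, *Casp4* and *Apaf1* passed with all other arrays in. Their limma adjusted p-values were 0.0445, 0.0441 and 0.0426, and 0.475% of all genes fell. KO replicate 2 was the highest KO value in each of these genes, so leaving it out had to widen their differences. The 2 sets of arrays also differed in the macrophage markers. Among the low arrays the mean of the 8 was 7.81 and 7.26 in WT replicates 3 and 4 and 5.94 and 6.10 in KO replicates 1 and 3. Among the others it was 7.02 and 6.64 in WT replicates 1 and 2 and 6.85 and 6.19 in KO replicates 2 and 4. KO replicate 2 was thus the highest KO array in these markers too. In the fit of all 8 iWAT arrays 0 of the 8 markers passed. The part of the B cell or macrophage signal in the values of *Casp1*, *Casp4* and the other genes was not tested.

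**Figure D4:**
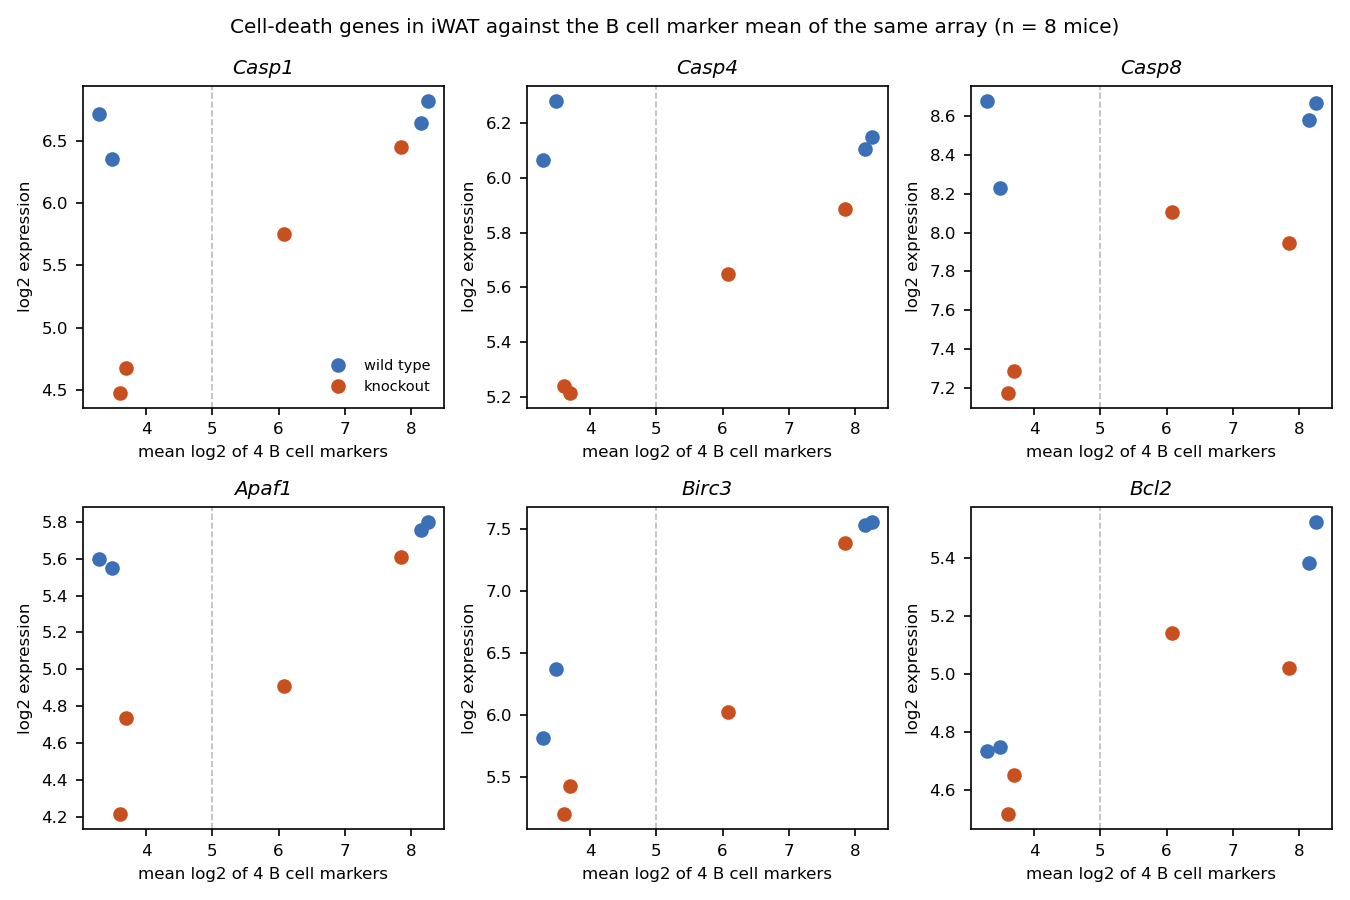
Log2 expression of 6 of the genes in iWAT (vertical axes) against the mean log2 level of 4 B cell markers on the same array (horizontal axes), each point 1 mouse, WT in blue and KO in orange, with a dashed line at 5. *Birc3* and *Bcl2* are higher right of the line than left of it within each genotype, whereas *Casp1*, *Casp4*, *Casp8* and *Apaf1* are lowest in the 2 KO arrays left of the line, and the WT arrays stay high on both sides.

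In BAT 0 of the 32 genes passed, where 0.0243% of all genes fell and 0.00406% rose. At an unadjusted p below 0.05, 3 were lower and 1 higher (12.5%, where 12.7% of all genes had such a p), so the group stood at the level of all genes. *Tnfrsf1a* measured 6.38, 6.65, 6.46 and 6.49 in WT and 5.95, 6.13, 6.17 and 6.07 in KO, a change of -0.41 (limma adjusted p = 0.125). All KO values lay below the WT values. *Casp8* measured 6.03, 6.28, 6.02 and 6.14 in WT and 5.63, 5.94, 5.41 and 5.93 in KO, a change of -0.39 (adjusted p = 0.239). *Bbc3* measured 2.26, 2.01, 2.30 and 2.08 in WT and 2.26, 2.57, 2.38 and 2.57 in KO, a change of 0.28 (adjusted p = 0.285), and its groups overlapped. With the skeletal muscle marker mean as a covariate these 3 changes were -0.40, -0.37 and 0.30, and 0 genes passed. The mean of the 5 brown adipocyte markers in BAT was 8.86 to 9.08 in WT and 8.27 to 8.60 in KO, with 0 passing and 3 lower at an unadjusted p below 0.05. That of the 8 macrophage markers was 4.80 to 5.37 in WT and 4.56 to 5.19 in KO, with 0 passing and 2 lower at that p. The part of these cells in the values of *Tnfrsf1a* and *Casp8* was not tested. Of the 45 further genes 0 passed in BAT, with 2 higher and 4 lower at an unadjusted p below 0.05. In iWAT 0 of them passed, with 0 higher and 6 lower at that p. Among all genes, 12.7% in BAT and 15.4% in iWAT had such a p in either direction, so both totals lay near the level of all genes.

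Across the tissues, *Casp8* was the one gene of the 32 with an unadjusted p below 0.05 and a lower KO mean in all 4, beside 0.552% of all genes. Its changes were -0.33 in liver, -0.84 in eWAT, -0.91 in iWAT and -0.39 in BAT, of which only that in eWAT passed adjustment, and the KO and WT groups were apart in each. *Casp1*, *Cflar* and *Ripk1* had such a p in 3 tissues, and 12.5% of the 32 genes and 3.04% of all genes had one in at least 3. The change of *Cflar*, the neighbour of *Casp8* on chromosome 1, was -0.31 in liver, -0.27 in eWAT, -0.34 in iWAT and -0.10 in BAT. *Bbc3* ran the other way in liver, iWAT and BAT, with 0.24, 0.54 and 0.28, each with an unadjusted p below 0.05 and none past adjustment, and had 0.01 in eWAT (95% confidence interval -0.18 to 0.20). *Bbc3* was also the one gene of the 32 whose mean lay below that of the median gene in all 4 tissues. The 4 tissues have the same mouse numbers in the labels and are therefore not independent tests.

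**Figure D5:**
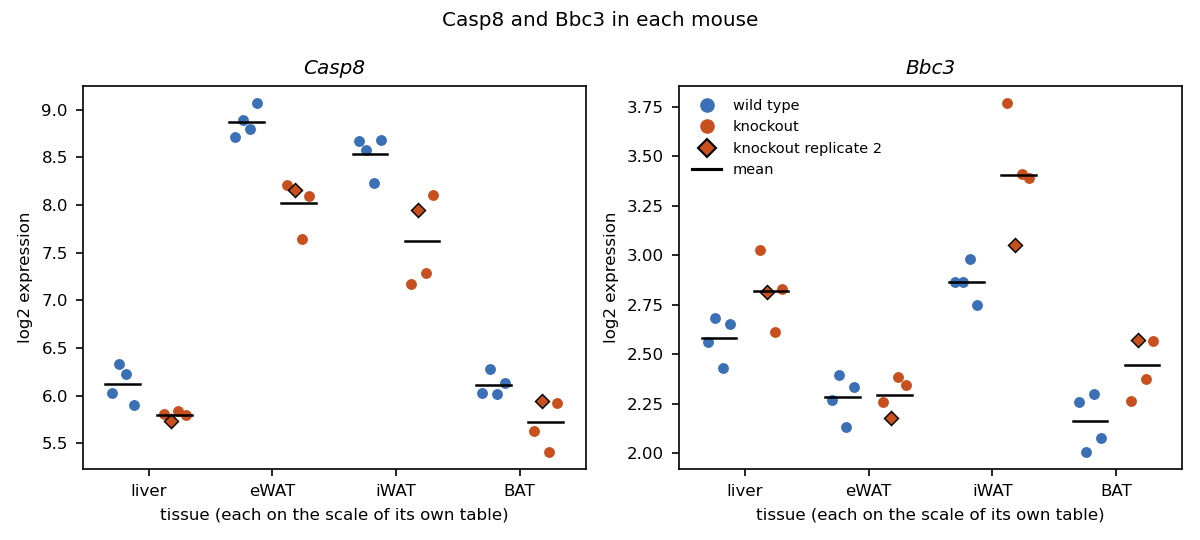
Log2 expression of *Casp8* (left) and *Bbc3* (right) in each mouse of the 4 tissues, WT in blue and KO in orange, with a black line at the mean of 4 mice and KO replicate 2 as a diamond; each tissue has the scale of its own table. *Casp8* lies lower in KO in every tissue, past adjusted p 0.05 in eWAT only, and *Bbc3* lies higher on average in KO in liver, iWAT and BAT without passing.

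By direction alone, 13 of the 32 genes (40.6%) had a lower KO mean in all 4 tissues, as had 13.8% of all genes, and 2 (*Bik* and *Bbc3*, 6.25%) had a higher one in all 4, as had 17.0% of all genes. Many of the single changes behind these counts are small against their error. Of the 32 genes, 22 lay at or above the median gene in all 4 tissues.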

How the data were processed

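Expression was measured on 32 arrays, 1 for each of 4 mice per genotype in each of 4 tissues. The authors deposited 1 table per tissue of normalized log2 values, with 1 value per gene symbol. The normalization method is not given in the sources used here, and 840 genes are averages over several probe sets, *Diablo* among the 32. Each tissue has its own scale, so tests were made within a table, and between tissues only on differences of changes. Groups and mouse numbers come from the sample labels, and replicates are separate mice. The number of arrays limits the precision.

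KO was compared with WT over all 24646 genes by limma 3.58.1 in R 4.3.3 (lmFit and eBayes) with Benjamini-Hochberg adjustment at 0.05, without a filter. The changes in 2 tissues were compared by fitting the tissue differences of the same-numbered mice. The 32 genes and all lists were chosen with earlier results of these data known. Genes named with all values by rule are the 10 with the largest change among those past the threshold, or those with the smallest p-values where few passed. The 5 largest falls among the 45 further genes are named with their change and adjusted p only. Other genes were named for their role or after their values were seen, among them *Birc3* and *Bcl2* with all values in iWAT. The correlation of the deviations of same-numbered WT and KO mice ranged from -0.38 to 0.67 and was not above 0.1 for every number in any tissue, so the numbers were not taken as pairs. In simulated data with 200 changed genes among 24646, the fits recovered 89% (liver), 90% (eWAT), 71% (iWAT) and 83% (BAT) of those changed by 1 on the log2 scale, and 100%, 99%, 93% and 98% of those changed by 2. The simulated noise was independent between genes and lacked the shared lymph node and muscle signals of the arrays. These shares therefore need not hold for the real data. The alternatives were other normalizations and priors, array weights, leaving out dim genes, a replicate block, and leaving out each mouse, and the fits with B cell or muscle markers were added after seeing the data.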

Additional observations from a re-analysis of the deposited data

Results flagged for a closer look

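A sample that stood far from the other 3 of its group was found in 3 of the 50 groups checked, and chance marks about 1 in 20 groups. In eWAT, KO replicate 2 was far above the other KO mice in *Ripk3*, at 3.47, and in *Apaf1*, at 5.87. WT replicate 3 was far above the other WT mice in *Bcl2l11*, at 4.89. KO replicate 2 was also the KO mouse nearest to WT in the macrophage markers.

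The change in eWAT differed from that in liver for 9 genes, by the test of the difference itself (limma, adjusted). The differences, eWAT minus liver on the log2 scale, were -1.62 for *Casp1*, -0.90 for *Casp4*, -0.88 for *Bak1*, -0.79 for *Bcl2l11*, -0.79 for *Ripk3*, -0.75 for *Apaf1*, -0.59 for *Gsdmd*, -0.43 for *Fadd* and 0.50 for *Fas*. Against BAT they were -1.70 for *Casp1*, -1.03 for *Casp4*, -0.88 for *Ripk3*, -0.76 for *Apaf1*, -0.71 for *Bak1* and -0.40 for *Birc3*. Both sets use the same eWAT arrays. The mean level of *Casp1* and *Ripk3* lay below that of the median gene in liver and in BAT, and that of *Casp4* did so in liver.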

How the results depend on the processing

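Counts by setting, here and above, show how stable the calls were. Except where a share of all genes is given beside them, they do not show an excess over all genes. In eWAT, 9 to 13 of the 32 genes passed under the other normalizations, priors and weights, and 10 with a replicate block. The range was 6 to 14 with 1 mouse left out. Of the 45 further genes, 10 to 17 passed in eWAT, and 6 to 21 with 1 mouse left out (6 without WT replicate 4, 21 without KO replicate 2). In liver the call of *Gsdmd* was lost with array medians made equal (0 genes), with a trended and robust prior (0) and with a replicate block (0), and 0 to 1 genes passed with 1 mouse left out. In iWAT 0 to 3 genes passed with 1 mouse left out, and 5 among the arrays low in B cell markers, a setting chosen after seeing the data. There, 1 further gene passed with the B cell covariate and 3 among the low arrays. Against liver, 6 to 10 genes differed under the other settings (7 with the block), and 1 to 9 with 1 mouse left out. Against BAT, 4 to 7 differed (6 with the block), and 2 to 5 with 1 mouse left out. The replicate block also ended the calls of *Birc2* (adjusted p = 0.0525) and *Mcl1* (0.0505) in eWAT, and of *Fas* (0.0605) and *Fadd* (0.0749) against liver and *Birc3* (0.0921) against BAT. The sign of up to 9 of the 32 changes turned in a setting (9 in the iWAT arrays high in B cell markers, *Casp12* from -0.52 to 0.07 among them, 6 in liver and 5 in eWAT after quantile normalization), in each case for changes with an unadjusted p above 0.05 on both sides. Quantile normalization moved the share of rises among all genes called in eWAT minus liver from 31.7% to 45.7% and in eWAT minus BAT from 31.4% to 45.3%. The causes were not tested.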
